A study of Mus musculus with 4 samples.

Results

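Astrocytes were examined among single nuclei from the mouse hippocampus. A nucleus counted as an astrocyte when it held at least 1 UMI (unique molecular identifier, 1 counted transcript) of 3 or more of the 10 genes Gja1, Aqp4, Aldh1l1, Gli3, Fgfr3, Acsbg1, Etnppl, Ntsr2, Slc1a3 and Bmpr1b, and at least 3 UMIs of the glutamate transporter gene Slc1a2. Nuclei with 2 or more of 7 genes of other glia and vessels (Mobp, Mog, Prr5l, Pdgfra, Inpp5d, Csf1r, Flt1) were left out, as were those with more than 3 UMIs of the neuronal genes Gad1, Gad2 and Slc17a7 together. The rule found 1645 astrocytes among 55295 nuclei that passed quality control, which is 2.97%, of 55640 barcodes in all. The nuclei were thus chosen by the UMI counts of 21 genes, and the levels of these genes are given only as a description.

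The mice were wild type (WT) or heterozygous for a germ line R87C substitution (Cyfip2+/R87C), called KI for knock-in, and were littermates on a C57BL/6N background at postnatal week 28. Every cell type carried the substitution, and the line is a model of West syndrome, an epilepsy of early childhood. Each genotype had 2 mice, 1 library per mouse, from the frozen hippocampi of both hemispheres. The labels gave all 4 libraries 1 batch, and the treatment label of KI replicate 2 reads R88C where its protocol reads R87C. Values per library are given below in the order WT replicate 1, WT replicate 2, KI replicate 1 and KI replicate 2, and CPM are the summed astrocyte UMIs of a gene, scaled to the same total in each library.

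Astrocytes are the glial cells that take up glutamate and potassium released by neurons, exchange water and metabolites with vessels, and supply neurons with lactate and with cholesterol packed on apolipoprotein E. In the adult brain they are the main makers of cholesterol beside oligodendrocytes. When tissue is injured or seizures recur, astrocytes become reactive and raise intermediate filament proteins such as GFAP and vimentin. Cyfip2 is a subunit of the WAVE complex, which drives the branching of actin filaments, and it also binds the fragile X protein FMRP.

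The libraries held 12665 to 16055 barcodes and 73009975 to 80913580 UMIs. The astrocytes of a library summed to 1659931, 1881558, 774362 and 914387 UMIs, with a median of 2182, 2307, 2618.5 and 2199 UMIs per nucleus. Malat1, a long RNA that stays in the nucleus, made up 10.4% to 14.7% of the astrocyte UMIs and more in both KI libraries than in both WT libraries. Pairs of libraries shared 40 to 67 barcodes, none of them an astrocyte in both. A doublet score above 0.25 was found in 192 of the astrocytes, 358 held 1 of the 7 barred genes, and 644 held at least 1 UMI of the neuronal genes.

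The label was checked by astrocyte genes that the rule did not use. Apoe measured 2653, 2432, 2784 and 3704 CPM in astrocytes and 166, 134, 137 and 138 CPM in all other nuclei, and Gfap measured 4.99, 2.80, 6.55 and 4.82 CPM in the other nuclei against 88.8 CPM or more in astrocytes. The genes of the rule itself lay 13.6- to 119-fold higher in astrocytes than in the rest, which the selection fixed and which checks nothing. Gja1, the main gap junction protein of astrocytes, measured 356, 359, 244 and 329 CPM in astrocytes and 7.42, 7.03, 3.35 and 4.45 CPM in the rest. Slc1a3, another glutamate transporter, measured 1305, 1458, 2144 and 1130 CPM. Slc1a2 measured 6217, 6836, 7073 and 6693 CPM, with the libraries of both genotypes interleaved. At the edge of the rule, 86, 107, 21 and 51 astrocytes held exactly 3 of the 10 markers, with a median of 11.5, 12, 9 and 10 Slc1a2 UMIs. Just outside it, 100, 111, 71 and 67 nuclei held exactly 2 markers with at least 3 Slc1a2 UMIs, and their median Slc1a2 count was 6, 6, 5 and 4.

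Astrocytes made up a smaller share of the nuclei in both KI libraries. WT replicate 1 had 556 astrocytes among 15981 nuclei, or 3.48% (exact Clopper-Pearson 95% interval 3.20 to 3.77). WT replicate 2 had 624 among 13162, or 4.74% (4.38 to 5.12). KI replicate 1 had 196 among 12555, or 1.56% (1.35 to 1.79), and KI replicate 2 had 269 among 13597, or 1.98% (1.75 to 2.23). The genotypes did not overlap, and the KI mean was 2.34 percentage points below the WT mean. The exact two-sided permutation test over libraries gave p = 0.333, the smallest that 2 against 2 mice allow, so the difference could not pass a threshold of 0.05. The intervals cover counting error only, and a share of nuclei does not separate fewer astrocytes in the tissue from fewer recovered or fewer meeting the rule. After each nucleus was thinned to 1500 UMIs before the rule was applied, the difference was -1.70 points.

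**Figure D1:**
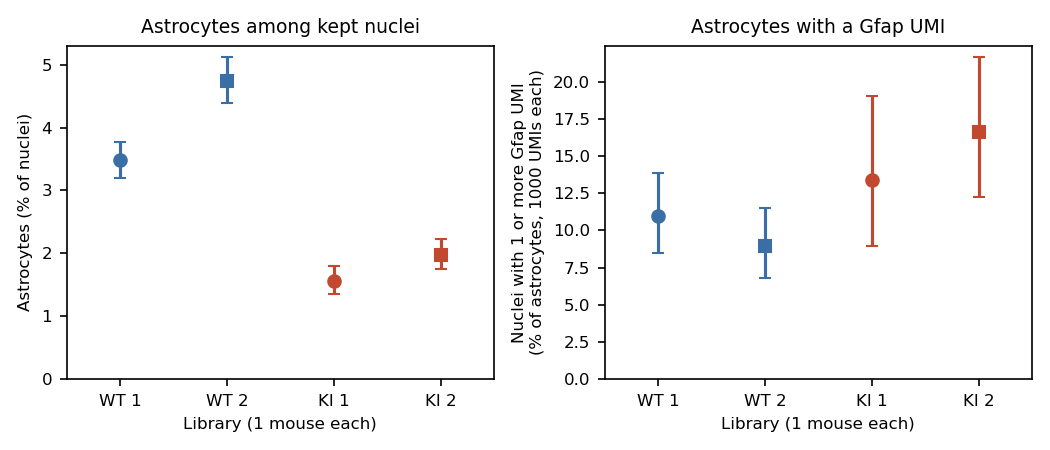
Left, astrocytes as a percentage of kept nuclei in each library. Right, astrocytes with 1 or more Gfap UMI after each nucleus was thinned to 1000 UMIs, as a percentage. Blue marks WT, red KI, circles replicate 1, squares replicate 2 and bars exact 95% binomial intervals of counting error. Both KI libraries lie below both WT libraries on the left, at 1.56% and 1.98%, and above them on the right, at 13.4% and 16.6%.

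Astrocyte UMIs were summed per library and compared between genotypes. Cyfip2 itself (chr11:46193850-46312859, minus strand, GRCm38) measured 120, 105, 105 and 102 CPM. Its log2 fold change of KI over WT was -0.05 ± 0.18 (SE) with an adjusted p of 0.940, and since the knock-in changes an amino acid, this level does not check the genotype. Of 11593 genes tested by the quasi-likelihood test of edgeR, 103 (0.888%) had an adjusted p below 0.05. Of these, 68 (0.587%) were higher and 35 (0.302%) lower in KI, and none is among the 21 genes of the rule. Scaling by library totals instead of TMM factors gave a split of 78 higher and 64 lower. Leaving out KI replicate 1 gave 521 calls, 99 of them among the 103, and leaving out KI replicate 2 gave 938, with 94 shared. Without WT replicate 1, 62 of the 103 were kept among 117 calls, and without WT replicate 2, 46 among 98. In each of these fits the genotype left with 1 library was assumed to vary like the other. At an unadjusted p below 0.05, 870 genes (7.5%) were higher and 690 (5.95%) lower, with a median log2 fold change of 0.00 over the whole table.

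The calls in the 2 directions differed in how they were spread over nuclei. For each called gene, the largest share of a library's UMIs found in 1 nucleus was taken over the libraries of the genotype where the gene was higher. Among the 35 lower genes, this share had a median of 2.34% and reached at most 11.1%. Among the 68 higher genes, it had a median of 23.1%, and 31 genes held more than 25% of a KI library's UMIs in 1 nucleus. The KI libraries had fewer astrocytes, so that 1 nucleus weighs more in them, and the part of this in the difference was not tested.

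Among the 35 genes that fell was Rgs20, which shortens signals of G proteins. Rgs20 measured 578, 665, 245 and 248 CPM, and its UMIs came from 391, 485, 100 and 128 nuclei. Both KI libraries lay far below both WT libraries, and the log2 fold change was -1.26 ± 0.17 (adjusted p 0.00990). Tspan7, a tetraspanin of the cell membrane that takes part in receptor trafficking, measured 998, 1178, 502 and 557 CPM (log2 fold change -0.97 ± 0.16). Rgs20 and Tspan7 passed the threshold in all 16 alternative settings tried. Dclk1, a kinase that binds microtubules, measured 1319, 1413, 726 and 702 CPM, and fell by 0.86 on the log2 scale, with its values in all other nuclei at 728, 753, 834 and 709 CPM.

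Fam163a (chr1:156075966-156205026, minus strand), a small membrane protein of little known function, measured 76.5, 86.1, 16.8 and 8.75 CPM and its log2 fold change was -2.62 ± 0.31 (adjusted p 0.00566). After thinning to 1000 UMIs, 10.2%, 8.63%, 1.03% and 1.54% of astrocytes held a UMI of it, against 0.302%, 0.315%, 0.593% and 0.407% of neurons. Both KI shares lay below both WT shares and above the share in neurons of the same library.

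Thrsp, a nuclear protein tied to the making of fatty acids and also a marker of radial glia-like stem cells of the dentate gyrus, measured 100, 91.4, 16.8 and 40.5 CPM (log2 fold change -1.63 ± 0.28). Of the 8 listed markers of such stem cells, 3 were tested. The other two, Riiad1 (0.71 ± 0.32) and Dcx (0.69 ± 0.34), were not past the threshold, and in both the KI libraries lay above the WT libraries, the opposite of Thrsp. Fam163a and Thrsp passed the threshold in each of the 15 alternative settings that gave them a value. Vegfa, the growth factor of blood vessels, measured 99.4, 105, 29.7 and 49.2 CPM and fell by 1.29 on the log2 scale. Etv5, a transcription factor that acts after fibroblast growth factor receptors, measured 88.0, 96.7, 38.7 and 33.9 CPM (-1.28 ± 0.22). Some of these genes were also called lower in other classes, Etv5 in neurons (-1.03, adjusted p 0.0275) and Vegfa in OPCs (-1.72, adjusted p 0.0274). Slco1c1, which carries thyroid hormone across membranes, measured 307, 341, 128 and 189 CPM (-0.96 ± 0.19). Ddah1, which breaks down an inhibitor of nitric oxide synthase, measured 145, 168, 68.4 and 56.9 CPM (-1.25 ± 0.20).

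Phka1, a subunit of the kinase that switches on glycogen breakdown, measured 368, 402, 176 and 210 CPM (log2 fold change -0.93 ± 0.17). Pcyt2, an enzyme of phosphatidylethanolamine synthesis, measured 119, 137, 60.7 and 41.6 CPM (-1.26 ± 0.23). Hspa5, the main chaperone of the endoplasmic reticulum, measured 180, 151, 67.2 and 86.4 CPM (-1.03 ± 0.19) and also lay lower in all other nuclei, at 83.6, 67.9, 39.1 and 40.8 CPM, where its adjusted p was 0.0512. Fold changes were ranked here among lower calls averaging 10 CPM or more, which leaves out Dsp (-2.94), whose average was 8.39 CPM. The other genes with the largest fold changes there were Fam151a (-2.79), C030018K13Rik, D630033O11Rik (-1.64), Lypd1 (-1.64), Gm12940 (-1.62), Cyp51 (-1.29) and Thbs3 (-1.28). Each of the genes so ranked had its KI libraries below both WT libraries. Lypd1 was also called lower in neurons (-0.97, adjusted p 0.0340). The calls of these genes were less steady: Fam151a passed in 8 of 13 alternative settings, Lypd1 and Thbs3 in 8 of 15, and C030018K13Rik, D630033O11Rik and Gm12940 in 11 of 15. Non-overlap alone is common here, since 27.7% of all tested genes had both KI libraries lower and 18% had both higher, 45.7% together.

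**Figure D2:**
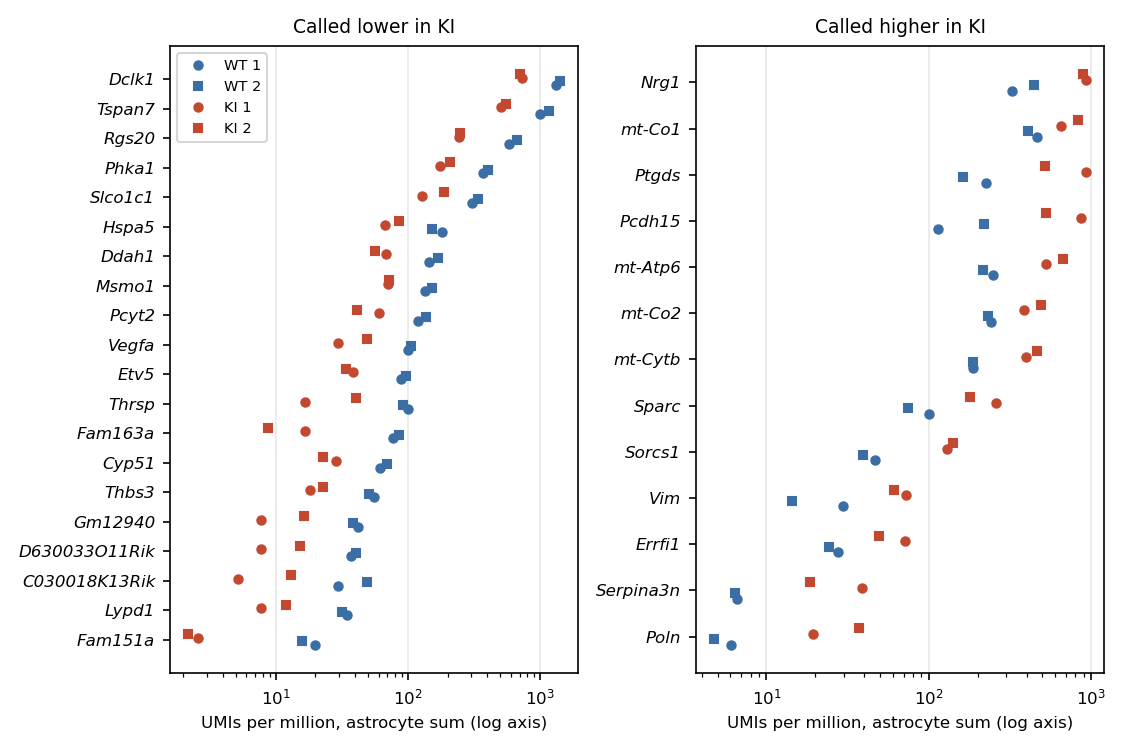
Summed astrocyte expression per library, in CPM on a log axis, for genes with an adjusted p below 0.05 that were lower (left) or higher (right) in KI. Blue marks WT, red KI, circles replicate 1 and squares replicate 2. In every gene shown, both KI points lie on the same side of both WT points, as for Rgs20, with 578 and 665 in WT and 245 and 248 in KI.

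Genes of cholesterol synthesis lay lower in KI as a group. Of 19 members, 18 were tested, 17 had a negative log2 fold change and 16 had both KI libraries below both WT libraries, as had 27.7% of all tested genes. Cyp51 and Msmo1 passed the threshold, where 0.302% of all tested genes were called lower, and 10 members had an unadjusted p below 0.05 in this direction against 5.95% of all genes. The median log2 fold change of the list was -0.83, beside 0.00 for all genes, and the members summed to 862, 942, 524 and 519 CPM. These counts describe the list and are no test of it.

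The members are given here in the order of the pathway. Hmgcs1 acts at the entry of the pathway and had a log2 fold change of -0.55 ± 0.21, not past the threshold. Idi1 and Fdps build the isoprenoid chain, and Fdps measured 27.1, 28.2, 10.3 and 10.9 CPM (-1.30 ± 0.34, adjusted p 0.0923). Fdft1 and Sqle commit the chain to sterols, with log2 fold changes of -0.80 ± 0.22 and -0.88 ± 0.26, neither past the threshold. Cyp51, which removes a methyl group from lanosterol, measured 61.4, 69.6, 28.4 and 23.0 CPM and fell by 1.29 on the log2 scale (adjusted p 0.0416). Msmo1, which acts on the next methyl groups, measured 136, 153, 71.0 and 72.2 CPM (-0.94 ± 0.19, adjusted p 0.0419). Dhcr7, which acts near the end of the pathway, was at -0.11 ± 0.33. Srebf2, the transcription factor of the pathway, was at -0.50 ± 0.21, and Insig1, its sterol-sensing brake, at 0.07 ± 0.31.

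Both calls were near the threshold, and Msmo1 passed in 8 of 16 alternative settings and Cyp51 in 11 of 15. In neurons, 16 of the 19 members also had a negative log2 fold change, with a median of -0.31, and 1 passed, namely Msmo1 (-0.77, adjusted p 0.0471), where 2.62% of all genes tested in neurons were called. In oligodendrocytes, where 0% of all 15314 tested genes were called, the median was -0.04, and in OPCs (oligodendrocyte precursor cells) it was 0.12 over the 9 members tested, also with no call, beside 0.322% of all genes called in OPCs. The test of the difference in the KI effect between astrocytes and neurons gave -1.01 ± 0.27 for Cyp51 (adjusted p 0.0914) and -0.18 ± 0.22 for Msmo1 (adjusted p 0.858), so neither was shown to differ between the 2 classes.

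The sequence ahead of the start of transcription was read for the 2 called members, because most members of the pathway lay lower together. The 250 bases before the start come from RefSeq on GRCm38.p6, both genes lie on the minus strand, and capitals mark CCAAT, the box bound by the factor NF-Y. The window of Cyp51 is chr5:4104698-4104947 and that of Msmo1 is chr8:64733579-64733828.
Cyp51: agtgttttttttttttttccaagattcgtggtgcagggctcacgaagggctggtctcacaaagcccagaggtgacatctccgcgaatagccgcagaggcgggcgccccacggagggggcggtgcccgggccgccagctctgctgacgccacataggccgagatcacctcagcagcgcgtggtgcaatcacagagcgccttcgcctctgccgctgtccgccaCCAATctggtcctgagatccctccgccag
Msmo1: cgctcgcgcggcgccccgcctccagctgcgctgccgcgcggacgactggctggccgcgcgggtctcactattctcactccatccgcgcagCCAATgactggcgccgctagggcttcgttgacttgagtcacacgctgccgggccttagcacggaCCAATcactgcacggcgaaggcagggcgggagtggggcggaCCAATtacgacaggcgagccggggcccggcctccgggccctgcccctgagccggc
Cyp51 holds 1 CCAAT and Msmo1 holds 3. RefSeq promoters were at hand for 14 of the 19 list members, in 16 windows, and 14 of these windows held CCAAT on either strand, against 33.8% of all 32851 windows of the same length. The letters TCACNCCAC, 1 form of the sterol regulatory element, were found in 1 of the 16 windows, that of Hmgcs1, and in 1.05% of all windows. The 2 motifs do not overlap in letters, and a match is a description of the sequence only.

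Genes of lipid transport and storage gave a single call. Of 27 members 22 were tested, with a median log2 fold change of 0.03, and 1 was called, where 0.587% of all genes were called higher. At an unadjusted p below 0.05, 6 members were higher and 3 lower, against 7.5% and 5.95% of all genes. The called member was Ptgds, which makes prostaglandin D2 and carries lipophilic molecules. Ptgds measured 225, 163, 927 and 522 CPM (log2 fold change 1.99 ± 0.26, adjusted p 0.00990). A single nucleus of KI replicate 1 held 386 of its Ptgds UMIs, and a single nucleus of KI replicate 2 held 166. Without the 5 nuclei rich in cilium transcripts, which are described further on, Ptgds in KI replicate 1 was at 434 CPM and the log2 fold change was 1.40, still past the threshold. With each nucleus thinned to 1000 UMIs, 18.8%, 13.4%, 41.8% and 34.4% of astrocytes held Ptgds, beside 6.87%, 4.65%, 19.3% and 12.4% of neurons. All other nuclei together measured 178, 143, 437 and 329 CPM, so the same order of libraries was found outside astrocytes, and the part of free RNA in the astrocyte value was not tested.

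Apod, a lipid carrier made mostly by oligodendrocytes and fibroblasts, measured 95.2, 55.8, 416 and 127 CPM in astrocytes (log2 fold change 1.93 ± 0.43, adjusted p 0.0586) and 82.2, 47.4, 548 and 134 CPM in the rest. KI replicate 1 stood high in both, and without it the log2 fold change of Apod was 0.78. Apod passed the threshold in 11 of 16 alternative settings, among them the one without the 5 cilium nuclei (1.90, adjusted p 0.0429). Apoe, the main lipid carrier of astrocytes, measured 2653, 2432, 2784 and 3704 CPM (0.42 ± 0.15, adjusted p 0.242). Abca1 and Abcg1, which load cholesterol onto such carriers, were at 0.71 ± 0.18 and 1.03 ± 0.34, neither past the threshold. Fatty acid oxidation had a median of -0.02 over 16 tested members, with no call, which is near the 0.888% of all genes, and none at an unadjusted p below 0.05, against 13.5% of all genes.

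Among markers of reactive astrocytes, Vim and Serpina3n rose. Of 33 listed genes, 13 had enough counts to be tested and 20 did not. Vim, the filament protein vimentin, measured 29.5, 14.3, 72.3 and 61.2 CPM (log2 fold change 1.69 ± 0.31, adjusted p 0.0324). Serpina3n, a secreted protease inhibitor, measured 6.63, 6.38, 38.7 and 18.6 CPM (2.17 ± 0.44, adjusted p 0.0428) on 11, 12, 30 and 17 UMIs. These are 2 calls among 13 tested genes, where 0.587% of all genes were called higher. Among the 13 tested genes, 8 were higher and 1 lower (Tnc, a matrix protein) at an unadjusted p below 0.05, where all genes gave 7.5% and 5.95%. A gene with few UMIs enters the test through the group where it is high, so these counts do not speak for the whole list.

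Gfap (chr11:102887336-102900912, minus strand), the filament protein used most often to stain astrocytes, measured 113, 88.8, 196 and 164 CPM. The genotypes did not overlap, and the log2 fold change was 0.91 ± 0.20 with an adjusted p of 0.0532, just above the threshold. It passed in 7 of 16 alternative settings. After thinning to 1000 UMIs, 60 of 548, 55 of 614, 26 of 194 and 43 of 259 astrocytes held a Gfap UMI, which is 10.9%, 8.96%, 13.4% and 16.6%. The share in neurons thinned alike was 0.0788% to 0.237%. Before thinning, neurons had a median of 7382 to 8843 UMIs and astrocytes 2182 to 2618.5, so the 2 shares are not a like-for-like background. The part of free RNA in the astrocyte share was not tested. The KI mean was 5.05 points above the WT mean (exact two-sided permutation test, p = 0.333, the smallest possible), and without thinning the shares were 19.8%, 19.4%, 29.6% and 26.8%.

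**Figure D3:**
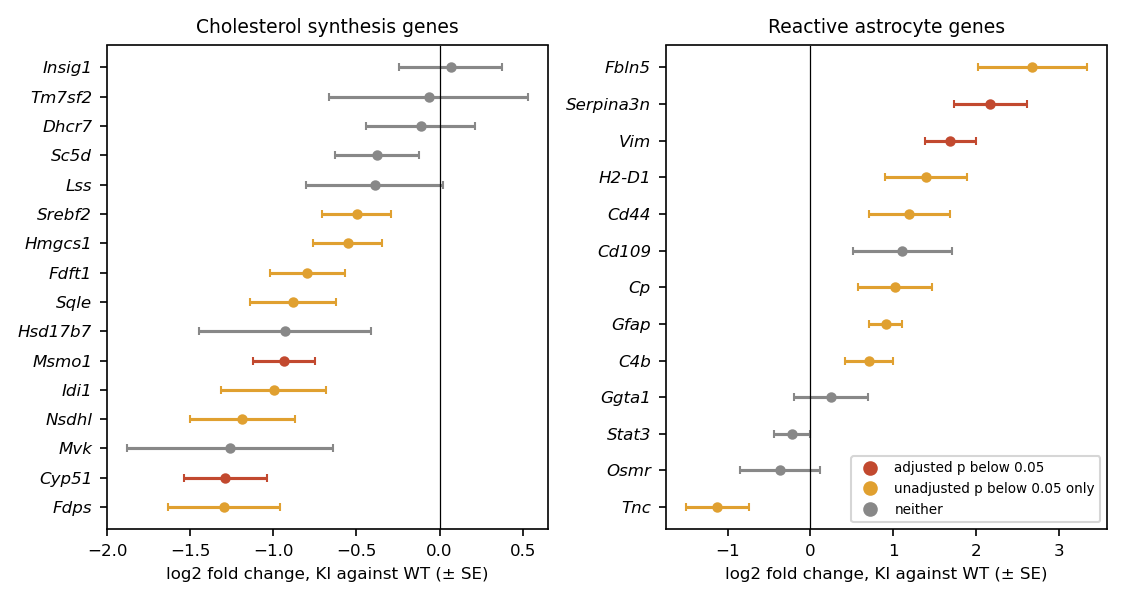
Log2 fold change of KI against WT in astrocytes for 16 of the 18 tested genes of cholesterol synthesis (left) and the 13 of the reactive astrocyte list (right), with bars of 1 standard error. Red points have an adjusted p below 0.05 in edgeR, yellow points an unadjusted p below 0.05 only, and grey points neither. On the left 15 of 16 points lie below 0, and on the right 10 of 13 lie above 0.

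Among the 68 higher genes were several that neurons and OPCs also express. Sorcs1, a sorting receptor, measured 46.4, 39.3, 129 and 141 CPM in astrocytes (log2 fold change 1.73 ± 0.19, adjusted p 0.00566). It was also called higher in all other nuclei (1.32, adjusted p 0.0393), where 0.797% of all genes were called, at 157, 130, 341 and 352 CPM. Nrg1, a ligand of ErbB receptors, measured 324, 447, 923 and 895 CPM (1.31 ± 0.18) and, in the rest, 569, 1011, 1243 and 1574 CPM. Pcdh15, a cadherin-like protein abundant in OPCs, measured 113, 217, 864 and 526 CPM (2.15 ± 0.30), and single nuclei held 121 and 166 of its UMIs in KI replicates 1 and 2. Sparc, a secreted matrix protein that astrocytes make, measured 101, 74.9, 260 and 178 CPM (1.40 ± 0.23), and in the rest 11.5, 10.3, 14.3 and 13.8 CPM. Poln, a DNA polymerase, measured 6.02, 4.78, 19.4 and 37.2 CPM and was detected in 10, 8, 11 and 29 nuclei (2.47 ± 0.42). In the rest Poln measured 7.68, 8.23, 14.1 and 24.1 CPM, and it was called higher in neurons (1.34, adjusted p 0.0340).

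Transcripts of other cell types were present in the astrocyte sums and are given beside these results. The 10 markers of excitatory neurons summed to 8783, 8156, 9829 and 9928 CPM, with no call but 3 higher and 1 lower at an unadjusted p below 0.05, and the 6 of OPCs to 87.4, 69.1, 59.4 and 96.2 CPM. Megf11, a gene used to choose OPCs but not in that sum, was called higher in astrocytes. Without the 5 cilium nuclei described further on, Megf11 measured 20.6, 14.9, 56.5 and 43.2 CPM (1.56, adjusted p 0.0295). The 7 markers of oligodendrocytes summed to 775, 475, 413 and 676 CPM, the 6 of microglia to 108, 103, 95.6 and 101 CPM, and the 7 of vessels to 91.0, 78.7, 55.5 and 44.8 CPM. The 7 markers of inhibitory neurons summed to 116, 137, 118 and 164 CPM, with Npy called higher (1.30 ± 0.25) and Dlx6os1 at -1.90 ± 0.53, not past the threshold, and those of dentate granule neurons to 1027, 810, 634 and 811 CPM, with Dsp called lower (-2.94 ± 0.61). Npy passed in 8 of 15 alternative settings and Dsp in 8 of 13. Over all genes, 0.587% were called higher and 0.302% lower. The 4 markers of choroid plexus summed to 184, 35.6, 161 and 84.2 CPM and the 5 of fibroblasts to 41.0, 44.6, 52.9 and 62.3 CPM, and neither list gave a call. The part of such transcripts in the astrocyte calls was not tested. With only nuclei free of every barred and neuronal marker, 41 genes were called.

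Transcripts of the mitochondrial genome lay higher in KI astrocytes. All 12 tested mRNAs of this genome had both KI libraries above both WT libraries, where 18% of all tested genes did, and 4 of them passed the threshold, where 0.587% of all genes were called higher. mt-Atp6, a subunit of ATP synthase, measured 247, 215, 524 and 669 CPM (log2 fold change 1.44 ± 0.17, adjusted p 0.00566). mt-Cytb, a subunit of complex III, measured 187, 188, 394 and 466 CPM (1.27 ± 0.16), and the complex IV subunits mt-Co2 and mt-Co1 were at 0.97 ± 0.17 and 0.83 ± 0.16. The 13 mRNAs summed to 2301, 2073, 3371 and 4380 CPM in astrocytes, to 436, 305, 279 and 443 CPM in neurons and to 1164, 697, 786 and 786 CPM in oligodendrocytes. In OPCs they summed to 665, 805, 895 and 1182 CPM.

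Mitochondrial RNA in nuclei is also a measure of how clean a nucleus is. The median astrocyte had 0.131%, 0.116%, 0.0903% and 0.212% mitochondrial UMIs, so KI replicate 1 had the lowest median and the second highest sum. Of 20 nuclear genes of oxidative phosphorylation, edgeR called 0, which is near the 0.888% of all genes, 0 had an unadjusted p below 0.05 against 13.5% of all genes, and the median was -0.02. The part of cytoplasmic carry-over in the mitochondrial values was not tested.

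A few nuclei held most transcripts of motile cilia. The genes of this list code for dyneins and other parts of beating cilia, which mark ependymal cells rather than astrocytes, and the list was drawn up after such genes had been seen among the calls. Its 13 members summed to 118, 36.1, 260 and 627 CPM, and 7 were called higher, where all genes gave 0.587%. Counted as UMIs, 132 of 196, 0 of 68, 154 of 201 and 522 of 573 came from 1, 0, 2 and 2 nuclei, those with 3 or more of the 13 genes. These 5 nuclei had met the astrocyte rule, and their median depth was 13052, 6977 and 17318 UMIs in WT replicate 1, KI replicate 1 and KI replicate 2. Dnah11, a dynein heavy chain, measured 6.02, 1.59, 25.8 and 54.7 CPM in 3, 3, 4 and 4 nuclei, and 1 nucleus of KI replicate 2 held 37 of its 50 UMIs. The 5 markers of ependymal cells summed to 31.3, 9.57, 65.9 and 166 CPM.

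Without these 5 nuclei, 91 of 11477 genes were called, 53 higher and 38 lower, 76 of them shared with the 103, and none of the 13 listed cilium genes was called. Kif6, a kinesin of motile cilia outside that list, was still called (1.51, adjusted p 0.0492). This setting was chosen after the data had been seen. The 12 genes with the largest rise were taken among calls with a mean of at least 10 CPM and no overlap between genotypes. Of these, Frmpd2, Dthd1, Dnah11, C230072F16Rik, Rgs22, Dnah6, Hydin, Tmem232, Spag17 and 3300002A11Rik then had too few counts to be tested, Cfap299 was at 1.48 (adjusted p 0.199), and Poln was still called (2.48). Of the 68 higher genes 43 were still called, among them Scn7a (4.67), Blnk (3.23) and Gm28578 (2.89), which lie outside those 12. Fam163a (-2.59), Rgs20 (-1.23) and Sorcs1 (1.75) stayed past the threshold, mt-Co1 (0.73, adjusted p 0.0625) did not, and Gfap (0.93, adjusted p 0.0449) was then called.

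**Figure D4:**
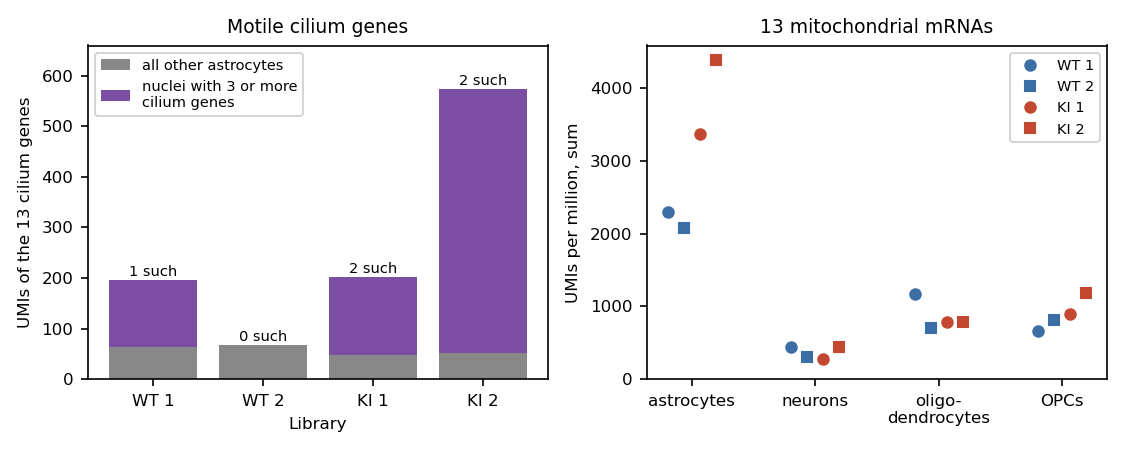
Left, UMIs of 13 motile cilium genes in the astrocytes of each library, as stacked bars of nuclei with 3 or more of these genes (purple, their number above the bar) and of all other astrocytes (grey). Bars are UMI counts that are not scaled to the depth of a library, and 522 of 573 UMIs of KI replicate 2 are purple. Right, summed CPM of 13 mitochondrial mRNAs by cell class, where the KI points (red) lie above the WT points (blue) in astrocytes and in OPCs, at 3371 and 4380 against 2301 and 2073 in astrocytes.

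The genes by which astrocytes clear transmitters and ions gave no call, and with 0.888% of all genes called this is near the background for lists of this size. Among the 16 genes of glutamate, GABA and glutamine handling the median log2 fold change was 0.10. Among 14 tested genes of potassium, water and coupling the median was -0.07. Kcnj10, the potassium channel Kir4.1, measured 68.1, 62.2, 149 and 93.0 CPM (0.96 ± 0.24, adjusted p 0.0807), and its log2 fold change was 0.53 without KI replicate 1. Of 15 tested receptors and calcium release genes none was called, and the metabotropic glutamate receptor gene Grm3 measured 495, 679, 302 and 337 CPM (-0.81 ± 0.18, adjusted p 0.0621). A p above the threshold does not show that these levels were equal.

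The lists of adenosine handling (median 0.01 over 4 tested genes), glucose, glycogen and lactate (0.03 over 17), lysosome (0.13 over 15), hedgehog pathway (-0.07 over 10) and astrocyte transcription factors (-0.10 over 18) held no call, again near the 0.888% of all genes. In the last list Lhx2 measured 77.1, 86.6, 46.5 and 54.7 CPM and Rorb 760, 899, 616 and 411 CPM, with adjusted p of 0.196 and 0.204. Of 18 tested synapse organizers and phagocytosis genes only Sparc was called, where 0.587% of all genes were called higher, and Mertk, a receptor for eating debris, measured 980, 1031, 666 and 825 CPM (-0.36 ± 0.15, adjusted p 0.334). Of the 9 genes that the study discussed in astrocytes from these same libraries, and that are therefore no independent evidence, none was called, beside 0.888% of all genes. The study compared subtypes of astrocytes there, and not the genotypes over all astrocytes as here. Their median log2 fold change was 0.09, and Prnp, the prion protein, measured 263, 273, 276 and 295 CPM.

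Genes of the clock and of the glucocorticoid response had a median log2 fold change of 0.29 over 19 members. Errfi1, a feedback inhibitor of the EGF receptor, was the only member called, where 0.587% of all genes were called higher, and measured 27.7, 24.4, 71.0 and 49.2 CPM (1.27 ± 0.26, adjusted p 0.0453). Arntl, the clock factor BMAL1, measured 84.3, 77.6, 46.5 and 36.1 CPM (-0.91 ± 0.23, adjusted p 0.0842). Fkbp5, a target of the glucocorticoid receptor, measured 110, 81.3, 103 and 328 CPM, so that KI replicate 2 alone stood high. Of 15 immediate early genes 8 were tested and none was called, which is near the 0.888% of all genes. Their median was -0.44, and Egr1 rested on few UMIs, at 15.1, 14.3, 9.04 and 1.09 CPM.

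The KI effect in astrocytes was then set against that in 3 other classes by a test of the difference itself, the interaction of class and genotype, in a fit that blocks on library. Against 4668 neurons, 126 of 16310 genes (0.773%) differed, 62 (0.38%) with a higher and 64 (0.392%) with a lower effect in astrocytes. mt-Atp6 and mt-Cytb were higher in KI astrocytes but not in KI neurons, where they measured 51.1, 30.5, 38.5 and 52.8 CPM and 38.1, 28.1, 25.0 and 41.0 CPM, and the differences in log2 effect were 1.17 ± 0.19 and 1.19 ± 0.20. Against oligodendrocytes their differences were 1.44 ± 0.27 and 1.17 ± 0.25, and against OPCs 0.54 ± 0.23 and 0.44 ± 0.26, none past the threshold. In OPCs themselves the log2 fold changes were 0.88 and 0.81, neither called. Rgs20 (-1.45 ± 0.18), Tspan7 (-0.85 ± 0.18) and Fam163a (-3.08 ± 0.43) were lower in KI in astrocytes relative to neurons, with adjusted p of 0.000258, 0.0208 and 0.000881. In the same order, their differences were -0.42 ± 0.23, -0.45 ± 0.20 and -1.05 ± 0.82 against OPCs. Against oligodendrocytes they were -1.11 ± 0.27, -0.87 ± 0.22 and -3.09 ± 0.56. None of these passed the threshold, so the falls were not shown to differ from those other classes. Gpc5, a heparan sulfate proteoglycan of astrocytes, measured 4872, 5714, 4205 and 4499 CPM in astrocytes, where it was not called (-0.21, adjusted p 0.569). In neurons it measured 219, 194, 551 and 740 CPM and was called higher (1.71, adjusted p 0.0230), and the difference was -1.92 ± 0.20. Gm20713, Lrp4 and Celrr differed in the same direction, and Cfap44 and Dnah9, parts of motile cilia, in the other. Without the 5 cilium nuclei, the log2 fold change in astrocytes went from 1.67 to 0.40 for Cfap44 and from 0.87 to 0.52 for Dnah9.

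Against 7027 oligodendrocytes, 9 of 14766 genes (0.061%) differed, 1 (0.00677%) with a higher and 8 (0.0542%) with a lower effect in astrocytes. Pcyt2 was at 119, 137, 60.7 and 41.6 CPM in astrocytes and at 89.3, 111, 233 and 92.4 CPM in oligodendrocytes (difference -1.96 ± 0.26, adjusted p 0.0202). Acot11, a thioesterase of fatty acids, measured 129, 136, 50.4 and 83.1 CPM in astrocytes and 3.56, 2.11, 12.9 and 11.1 CPM in oligodendrocytes (-3.00 ± 0.38). Acaca, the first enzyme of fatty acid synthesis, measured 158, 198, 177 and 133 CPM in astrocytes and 267, 256, 794 and 559 CPM in oligodendrocytes (-1.57 ± 0.24). After barcodes with high doublet scores were left out, 0 genes differed by edgeR in this comparison, with 923 at an unadjusted p below 0.05 and 6 by DESeq2 with all barcodes kept.

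Against 893 OPCs, 18 of 10974 genes (0.164%) differed, 7 (0.0638%) with a higher and 11 (0.1%) with a lower effect in astrocytes. Scaled by library totals the split was 13 and 11. Hif3a, a hypoxia-inducible factor subunit, measured 143, 171, 195 and 205 CPM in astrocytes and 7.89, 4.03, 96.8 and 83.2 CPM in OPCs, and Lhfp measured 274, 264, 262 and 170 CPM in astrocytes and 9.20, 16.1, 49.9 and 40.2 CPM in OPCs. Dclk1 was lower in KI astrocytes and not in KI OPCs, at 563, 479, 565 and 643 CPM (difference -1.21 ± 0.19, adjusted p 0.00954). Sorcs1 was level in OPCs at 530, 574, 542 and 541 CPM, and Pcdh15 measured 2350, 2825, 2057 and 2034 CPM there, with differences of 1.63 ± 0.22 and 2.36 ± 0.25. Of the genes of the astrocyte rule, Slc1a2 measured 210, 237, 195 and 184 CPM in all nuclei outside the astrocytes.

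Astrocytes also differed among themselves. Within each library, astrocytes with and without a Gfap UMI were compared after thinning to 1000 UMIs per nucleus, with the library as the pair, and 106 of 2265 genes (4.68%) differed, 56 (2.47%) higher and 50 (2.21%) lower in those with Gfap. The split depended on the setting: it was 40 higher and 8 lower without high doublet scores, 22 and 3 without KI replicate 2, and 19 and 164 without the low-count filter. Apoe measured 6100, 4818, 8308 and 10140 CPM with Gfap and 2934, 2844, 2905 and 4190 CPM without, a log2 difference of 1.12 ± 0.11. Mt1, a metal-binding metallothionein, was at 1.26 ± 0.12, Cst3, a protease inhibitor, at 0.94 ± 0.12 and Id3, a transcription regulator of glial genes, at 1.55 ± 0.23. The mitochondrial mRNAs mt-Atp6, mt-Co3 and mt-Cytb were also higher with Gfap, at 1.60 ± 0.18, 1.10 ± 0.14 and 1.37 ± 0.19. Each of these genes, and Fth1, a subunit of the iron store ferritin, was higher in 4 of 4 libraries, WT and KI alike. The part of cytoplasmic carry-over and of neuronal RNA in the Gfap contrast was not tested.

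The genes lower in astrocytes with Gfap named here are mostly known from neurons. Rbfox1, a splicing regulator, measured 883, 582, 692 and 791 CPM with Gfap and 1301, 1107, 1435 and 1676 CPM without (-0.89 ± 0.15). Dlg2, Grin2a, Kcnip4, Syt1, Nrg3 and Kcnd2, which serve synapses or ion channels, and Trpm3, a cation channel, were lower in 4 of 4 libraries, by 0.60 to 1.17 on the log2 scale. Without nuclei of high doublet score, only Trpm3 of these 8 genes passed the threshold, while the 8 named genes that were higher with Gfap all did. Fewer nuclei enter that setting, and a lost call does not show that a difference was gone.

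**Figure D5:**
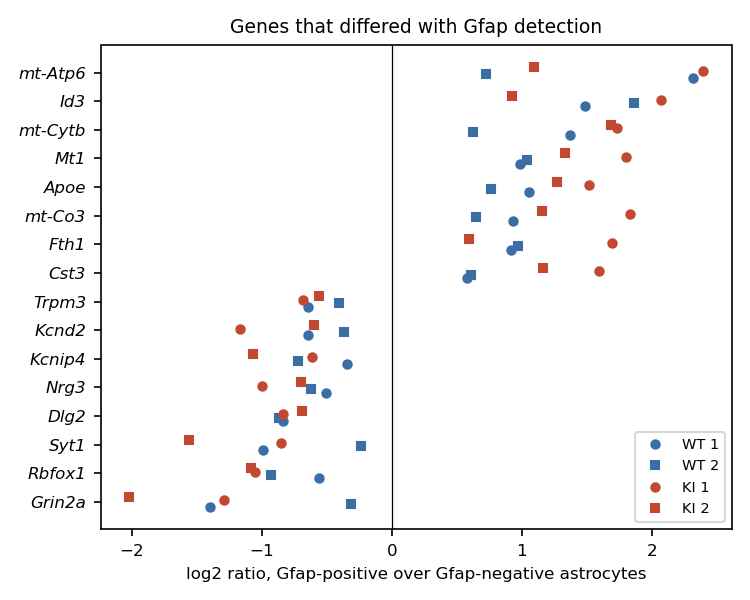
Log2 ratio of summed expression in astrocytes with a Gfap UMI over those without, for 16 genes, after thinning to 1000 UMIs per nucleus. Each point is 1 library (blue WT, red KI, circles replicate 1, squares replicate 2). For each gene the 4 points lie on 1 side of 0, to the right for Apoe, Mt1 and the mitochondrial mRNAs and to the left for Rbfox1 and Grin2a.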

How the data were processed

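The hippocampal nuclei were profiled by droplet RNA sequencing from the 3′ end. The values used are raw UMI counts per gene and barcode, which the authors obtained with Cell Ranger (7.0.1 per the file headers; mm10 per the submitters' processing notes) and deposited without normalization. Which annotation was used, and whether intronic reads were counted, is not given in the sources used here. Gene positions were read from GENCODE M21 (GRCm38).

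Groups came from the GEO titles and genotypes. A barcode was kept if it had 500 genes or more and a mitochondrial share below 5%. Doublets were removed in an alternative only, by a Scrublet score (scanpy 1.11.5) above 0.25. The members and gene lists were chosen with earlier results of these data known. The study tested single nuclei, which are not replicates of a mouse. Here counts were summed per library and class, filtered, scaled by TMM factors and tested by the quasi-likelihood test of edgeR 4.0.16 (R 4.3.3), with Benjamini-Hochberg adjustment over all genes tested and a threshold of 0.05. Each mouse gave a single library, so differences between mice and between libraries cannot be told apart. The p-values rest on the spread between 2 libraries per genotype, with a variance that edgeR moderates over all genes. Neurons needed at least 4 UMIs of Gad1, Gad2 and Slc17a7, and oligodendrocytes and OPCs at least 3 of 7 and 3 of 6 markers, with few markers of other classes. Counts of genes that differed between classes, or with Gfap, leave out the genes used to choose the nuclei. The fits were tested on simulated data. DESeq2 1.42.0 was an alternative.

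Named genes were Cyfip2, the 12 called genes per direction with the largest log2 fold change, a mean of at least 10 CPM and no overlap between genotypes, the leading members of each list, and the genes of lowest p in each class and Gfap contrast with at least 20 CPM. Rgs20, Nrg1, Tspan7, Hspa5, Ddah1, Slco1c1, mt-Co1, mt-Co2 and Phka1, the cilium and mitochondrial mRNA lists and further list members were named after their values had been seen. Some list members are counted but not reported here by name.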

Additional observations from a re-analysis of the deposited data

Results flagged for a closer look

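The results below stand out because the KI effect differed between astrocytes and another class by the test of the difference itself, edgeR's class-by-genotype term, with values as log2 effect in astrocytes minus log2 effect in the other class. Against neurons, Cfap44 was at 2.28, Dnah9 at 1.21, mt-Cytb at 1.19 and mt-Atp6 at 1.17. The same test against oligodendrocytes and against OPCs did not pass the threshold for mt-Cytb or mt-Atp6. In astrocytes without the 5 nuclei rich in cilium transcripts, the log2 fold change of Cfap44 was 0.40 (adjusted p 0.709) in place of 1.67, and that of Dnah9 was 0.52 in place of 0.87. In the other direction Lrp4 was at -2.71, Celrr at -2.20, Gm20713 at -2.08 and Gpc5 at -1.92.

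Against oligodendrocytes, Kif6, a kinesin of motile cilia, was at 2.25, and Acot11 was at -3.00, Pcyt2 at -1.96, Lhfp at -1.87 and Acaca at -1.57. Against OPCs, Pcdh15 was at 2.36, Gm15398 at 1.89, Sorcs1 at 1.63 and Unc13c, a factor of vesicle priming, at 1.56. In the other direction Hif3a was at -3.59, Lhfp at -2.19, Adarb2, an RNA-binding protein of the editing enzyme family, at -1.48 and Dclk1 at -1.21. Kif6 measured 18.1, 11.2, 43.9 and 63.4 CPM in astrocytes, with 28 of its UMIs in 1 nucleus of KI replicate 2, and 115, 118, 87.5 and 90.9 CPM in oligodendrocytes. Gm20713 measured 834, 1050, 594 and 691 CPM in astrocytes and 38.5, 37.4, 97.1 and 124 CPM in neurons.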

How the results depend on the processing

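With 2 mice per genotype, the counts of calls depended on the setting, and the cause was not tested unless named. The count of 103 astrocyte genes was 55 by DESeq2, 171 without the low-count filter, 41 without nuclei holding a marker of another cell type, 42 after the sums were thinned to the same total and 56 after each nucleus was thinned to 1000 UMIs, where fewer genes were tested. It ranged from 98 to 938 as each library was left out. With the replicate numbers as a block it was 117, 95 of them shared, and the deviations of the first WT and KI replicates correlated at -0.06. With 2 mice per genotype, this value cannot show whether libraries of the same number shared more than the number. The count against neurons (126) was 311 without the filter, 29 by DESeq2, 200 without high doublet scores and 62 to 401 with 1 library left out. Against oligodendrocytes (9) it was 142 without the filter, 0 without high doublet scores and 2 to 461 with 1 library left out. Against OPCs (18) it was 70, 5 by DESeq2, 7 without high doublet scores and 14 to 168. The Gfap contrast (106) gave 183 without the filter, 46 by DESeq2, 227 after thinning to 2000 UMIs, 48 without high doublet scores and 25 to 84.

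The difference in astrocyte share was negative in every setting, from -1.41 points with at least 5 markers to -2.35 without the Slc1a2 minimum, -8.32 as a share of the 4 classes and -1.71 to -2.97 with 1 library left out, and within the replicate block its p was 0.5. The difference in Gfap share was 2.34 to 8.59 points, and 3.45 to 6.65 with 1 library left out. Among the named genes followed through the settings, sign changes were found for 6, none of them called in the astrocyte fit. As each library was left out, the log2 fold change ranged from -0.14 to 0.029 for Cyfip2 (0.029 without WT replicate 1, 0.01 without KI replicate 2), from -0.56 to 0.30 for Adk (0.07 without WT replicate 2, 0.30 without KI replicate 2), from -0.40 to 0.10 for Acaca (0.05 without WT replicate 2, 0.10 without KI replicate 2), from -0.15 to 1.02 for Sqstm1 (-0.15 without KI replicate 1) and from -0.65 to 0.077 for Lhfp (0.077 without KI replicate 2). Without nuclei holding other markers Cyfip2 was at 0.051 and Adk at 0.0076, and after thinning to 1000 UMIs Dnah9 was at -0.023. The 774362 to 1881558 astrocyte UMIs of a library limit what low genes can show.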
